A study of Mus musculus with 6 samples.

Results

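The genes described here are the kainate glutamate receptor subunits Grik1, Grik2, Grik3, Grik4 and Grik5, the delta receptor subunit Grid1, and the auxiliary proteins Neto1 and Neto2. They were chosen by symbol: all probe sets that the array annotation assigns to 1 of these symbols alone were taken. That gave 16 probe sets for 8 of the 18193 genes that the annotation names by a single symbol. The RNA came from S100a10 bacTRAP mice, line ES691, in which the S100a10 control region drives a tagged ribosomal protein, so that ribosomes and the RNA on them can be pulled from cortex (TRAP). S100a10 encodes p11, a binding partner of some serotonin receptors, and the line marks a class of cortical pyramidal cells. The submitters add that it also marks some non-neuronal cells. Fluoxetine mice (3 arrays) drank fluoxetine, an antidepressant that blocks serotonin reuptake, at 0.167 mg/ml with 1% saccharine. Vehicle mice (3 arrays) drank 1% saccharine. Treatment lasted 15 to 18 days, and all the mice carried the transgene on a background moved by 3 to 5 generations of crossing from FVB to C57BL/6. The labels call the arrays biological replicates. The sources used here give no age, sex or number of animals behind an array, and p-values measure only the spread between these samples.

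Kainate receptors are tetrameric cation channels that glutamate opens. Grik1, Grik2 and Grik3 encode subunits that can form a channel by themselves, while Grik4 and Grik5 encode high-affinity subunits that need a partner from the first group. In cortex the receptors act on both sides of the synapse and adjust transmitter release and excitability. Grid1 encodes a delta subunit, a relative that glutamate does not open in the usual way and that joins postsynaptic to presynaptic membranes through secreted cerebellins and neurexins. Neto1 and Neto2 encode membrane proteins that bind kainate receptors and slow their closing.

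Values are intensities that the authors normalized with GCRMA, on a linear scale, and differences are fluoxetine minus vehicle in log2. Array medians over all probe sets lay between 47.3 and 48.6, and upper quartiles between 498 (fluoxetine 2) and 574 (vehicle 2). Arrays correlated at 0.980 to 0.992 over the 22326 probe sets tested. Of these, 69.9% lay above their own mean on vehicle 2 and 37.3% on fluoxetine 2. Some arrays deviated from their group means alike, and others in opposite directions. The correlation of deviations over the tested probe sets was 0.43 for fluoxetine 1 with vehicle 3 and 0.35 for fluoxetine 3 with vehicle 2. For fluoxetine 3 with vehicle 3 it was -0.50. The labels give no batch. S100a10 read 32391 to 36869 with fluoxetine, against 34487 to 38076 with vehicle. All 5 excitatory neuron markers searched (Slc17a7, Camk2a, Neurod2, Neurod6 and Tbr1) passed an intensity of 50, as did all 7 markers of inhibitory neurons and all 8 of astrocytes. Of the markers with a probe set, 4 of 5 for oligodendrocytes, 5 of 6 for their precursors, 4 of 7 for microglia, 4 of 6 for endothelium, 5 of 7 for pericytes and 4 of 4 for meninges also passed. Passing is a statement on the mean over 6 arrays: Gfap, an astrocyte filament gene, reached it through fluoxetine 1 and 3, and read 4484, 22.5 and 519 with fluoxetine and 26.1, 37.8 and 50.8 with vehicle. In bulk samples fewer cells of a type and less RNA per cell cannot be told apart.

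All 8 genes had at least 1 probe set whose geometric mean over the 6 arrays reached 50, the level below which the submitters advise leaving values out. Of the 16 probe sets, 10 passed and were tested, and 6 did not. Grik1, Grik2, Grik3 and Grid1 each had 1 bright and 1 dim probe set, and Neto2 had 1 bright and 2 dim. Grik4 and Grik5 had a single probe set, and the 3 of Neto1 all passed. The dim probe sets read between 5.99 and 25.2 on every array, so the brighter one carries the gene's measurement. Intensities of different probe sets depend on their probes, so the levels below rank arrays for 1 gene and not the genes against each other.

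In limma's test with Benjamini-Hochberg adjustment at 0.05, none of the 10 tested probe sets passed, and 0% of all tested probe sets did. The smallest adjusted p over the whole table and among the members was 0.999. None of the 10 had an unadjusted p under 0.05, against 2.52% of all tested probe sets (563 of 22326), and the smallest among them was 0.117, for Grik4. The fluoxetine and vehicle values of all 10 overlapped, whereas 8.05% of all tested probe sets had groups that did not overlap. With each gene represented by its brightest probe set, 4 genes were lower and 4 higher, against 66.3% of all tested probe sets lower. The median difference of the 8 genes was -0.04, and that of all tested probe sets was -0.06; after quantile normalization and after a shift of the arrays to a common median, that of the 8 genes was 0.03 and 0.02, still with 4 genes lower.

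**Figure D1:**
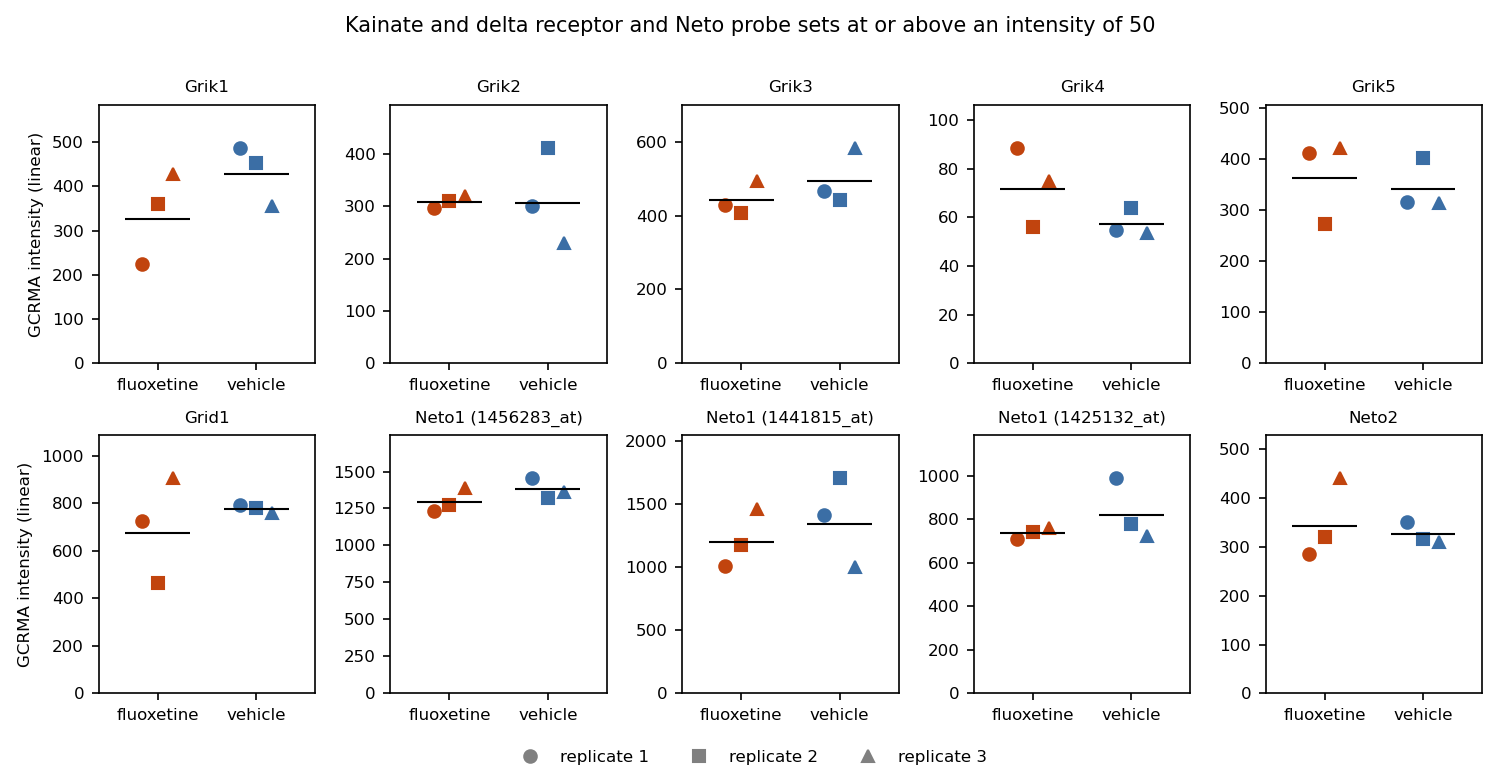
Each panel shows the linear GCRMA intensity of 1 tested probe set on the 3 fluoxetine arrays (left, orange) and the 3 vehicle arrays (right, blue); marker shapes give the replicate number and bars the geometric mean. The groups overlap in all 10 panels, and the widest spread within a group, in log2, is among fluoxetine arrays for Grik1 and Grid1.

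Among the subunits that form channels alone, Grik1 had the largest difference. This subunit is known from rodent cortex for its expression in inhibitory neurons. Probe set 1427676_a_at read 223, 359 and 428 on fluoxetine arrays 1 to 3, against 487, 453 and 355 on vehicle arrays 1 to 3. Fluoxetine 1 was the lowest of the 6, and fluoxetine 2 and 3 lay between the vehicle values. In log2 it averaged 8.34 ± 0.49 on fluoxetine arrays and 8.74 ± 0.24 on vehicle arrays (SD, n = 3 each). The difference was -0.40 ± 0.25 (SE), a fold of 0.760 with a 95% interval of 0.502 to 1.15 (limma, adjusted p = 0.999). It rested largely on fluoxetine 1: without that array it was -0.12, and without fluoxetine 3 it was -0.59. Malat1, from a list of 6 nuclear RNAs, was lowest on the same array. It read 115, 480 and 607 with fluoxetine, and 924, 461 and 127 with vehicle. Of the 6 RNAs on that list, Malat1 and Snhg11 were lowest on fluoxetine 1, while Miat, Neat1, Rian and Meg3 were not. The part of Malat1 in the Grik1 difference was not tested.

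Grik2 encodes a widely used subunit of principal neurons whose RNA is edited in the pore region. Its probe set 1457683_at read 297, 310 and 321 on the fluoxetine arrays, against 302, 412 and 231 on the vehicle arrays. The fluoxetine arrays were close together, and the vehicle arrays held both the highest and the lowest value. The SD was 0.06 with fluoxetine and 0.42 with vehicle in log2. The difference was 0.01 ± 0.21 (SE), with an interval of 0.720 to 1.42 in fold. It was 0.23 without vehicle 2 and -0.19 without vehicle 3, and its sign also turned without fluoxetine 3 (-0.01). The AMPA subunit gene Gria2 and its relative Gria3, set beside Grik2 after their values were seen, were also lowest on vehicle 3. Of 7 tested AMPA and NMDA subunit genes these were the only 2, with 3 lowest on fluoxetine 1 and 2 on fluoxetine 2. Malat1 was low on vehicle 3 too, but 3 of the 6 nuclear RNAs searched lay above their own mean there. Gria3 read 2719, 3303 and 4734 with fluoxetine, and 5406, 4365 and 2681 with vehicle.

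Grik3 encodes a subunit with low sensitivity to glutamate. Its probe set 1440177_at measured 430.0, 406 and 493 with fluoxetine, and 466, 443 and 584 with vehicle. Vehicle 3 was the highest array, and fluoxetine 3 exceeded the other vehicle arrays. The difference was -0.16 ± 0.15 (SE), a fold of 0.894 with an interval of 0.702 to 1.14. Without vehicle 3 it was -0.04. The dim probe sets of these genes, tested only with the filter removed, differed by -0.11 (Grik1), 0.02 (Grik2) and 0.10 (Grik3), and limma's adjusted p for them was 0.802 or more.

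The high-affinity subunits Grik4 and Grik5 both had a positive difference, with 95% intervals that included no change. Grik4 had the smallest unadjusted p of the 10 probe sets. Its only probe set, 1437681_at, read 88.6, 55.9 and 75.0 on the fluoxetine arrays, against 54.7, 63.9 and 53.5 on the vehicle arrays. Fluoxetine 1 and 3 exceeded all vehicle arrays, while fluoxetine 2 fell inside the vehicle range. In log2 it averaged 6.17 ± 0.34 on fluoxetine arrays and 5.84 ± 0.14 on vehicle arrays (SD, n = 3 each). The difference was 0.33 ± 0.19 (SE), a fold of 1.26 with an interval of 0.929 to 1.70 (limma, unadjusted p = 0.117, adjusted p = 0.999). Leaving out fluoxetine 1 brought it to 0.18, and leaving out fluoxetine 2 to 0.51 (unadjusted p = 0.013, adjusted p = 0.908). The probe set was dim, with a geometric mean of 64.1, and it was not tested where the minimum was 100. The astrocyte markers ordered the fluoxetine arrays as Grik4 did: the median centred log2 value of the 8 was 0.45, -0.38 and 0.21 with fluoxetine, against -0.12, -0.08 and -0.20 with vehicle. That order was not particular to astrocytes. Precursor markers had 0.39, -0.84 and 0.25 with fluoxetine, and oligodendrocyte markers 0.16, -0.55 and 0.13. All tested probe sets had 0.011, -0.058 and -0.017. Some lists had another order, such as microglia markers at -0.10, -0.07 and 0.51. Gfap (above) and Aqp4, the astrocyte water channel gene with 826, 174 and 553 against 259, 294 and 262 with vehicle, were highest on fluoxetine 1 and lowest on fluoxetine 2. Of the 8 astrocyte markers, 5 were highest on fluoxetine 1 and 5 lowest on fluoxetine 2. Slc1a2, Gja1 and Sox9 were not lowest there. The part of these lists in the Grik4 difference was not tested.

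Grik5 encodes the high-affinity subunit that is the more widely expressed in brain. Probe set 1418784_at read 411, 274 and 422 with fluoxetine, against 316, 402 and 313 with vehicle. Fluoxetine 2 was the lowest array and fluoxetine 3 the highest. The difference was 0.08 ± 0.20 (SE), a fold of 1.06 with an interval of 0.763 to 1.47. Its sign turned without fluoxetine 1 (-0.01) and without fluoxetine 3 (-0.03), and without fluoxetine 2 the difference was 0.29.

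The delta subunit gene Grid1 shared the low value on fluoxetine 2, where 28.2% of all tested probe sets were lowest. Its probe set 1441499_at measured 725, 466 and 905 with fluoxetine, and 792, 781 and 759 with vehicle. The vehicle arrays were almost level, and the fluoxetine arrays lay below, far below and above them. The SD was 0.49 with fluoxetine and 0.03 with vehicle in log2, against medians of 0.19 and 0.15 over all tested probe sets. The difference was -0.21 ± 0.23 (SE), a fold of 0.867 with an interval of 0.593 to 1.27. Without fluoxetine 2 it was 0.06. The other probe set of Grid1 read 11.31 to 11.99 with fluoxetine and 11.69 to 12.57 with vehicle.

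Most of the tested oligodendrocyte lineage markers were also lowest on fluoxetine 2: 3 of 4 for oligodendrocytes (not Mobp) and 3 of 5 for precursors (not Pdgfra or Sox10). Of all tested probe sets, 28.2% were lowest there, the largest share of any array. The summed intensity of 5 oligodendrocyte markers was 21809, 13238 and 21065 on the fluoxetine arrays, against 19976 to 21566 on the vehicle arrays. Cnp made up most of that sum, at 18038, 10840 and 17351 with fluoxetine. The summed intensity of 6 precursor markers was 5274, 2111 and 3426 on the fluoxetine arrays, against 2553 to 2985 on the vehicle arrays. Olig1, at 3227, 734 and 1715 with fluoxetine, was its largest part except on fluoxetine 2. All 4 tested oligodendrocyte markers were lower with fluoxetine (median -0.18), and 3 of 5 tested precursor markers were higher. The summed intensity of the 8 astrocyte markers was 49789, 36818 and 43151 on the fluoxetine arrays, against 39000 to 43507 on the vehicle arrays. Gja1, a gap junction gene, made up the largest share of that sum, and it was not lowest on fluoxetine 2 (22829, 24722 and 22422 with fluoxetine). Of the 8, 5 were lowest there, and Slc1a2, Gja1 and Sox9 were not. Sox9, a glial transcription factor gene, had groups that did not overlap, at 474, 428 and 409 with fluoxetine and 287, 286 and 301 with vehicle (difference 0.58 ± 0.11 SE; limma, unadjusted p = 0.0011, adjusted p = 0.999). None of these list members passed limma's test, and their part in the values of Grid1 and Grik5 was not tested.

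**Figure D2:**
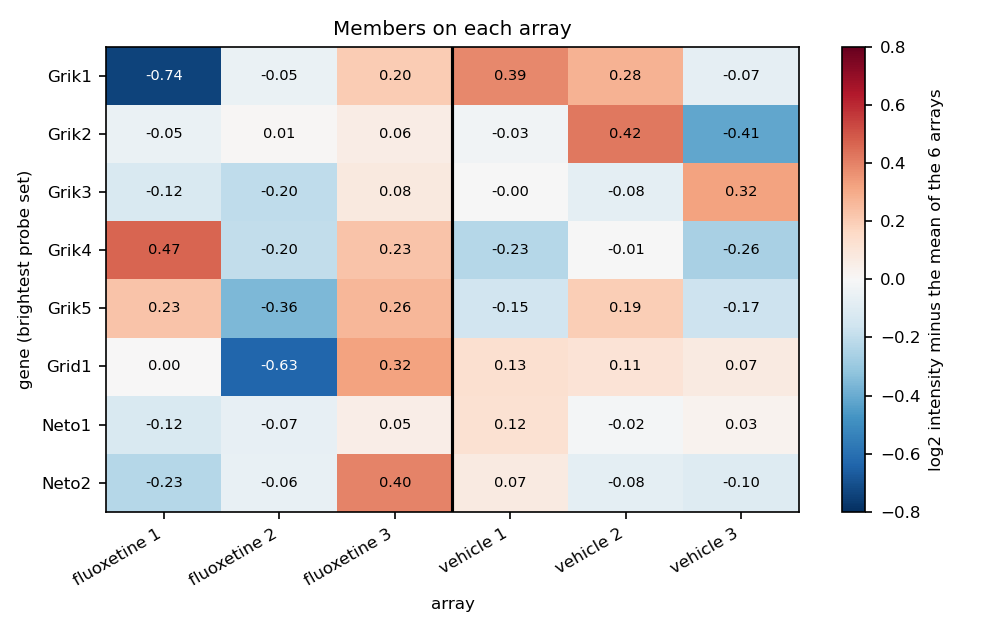
Rows are the 8 genes by their brightest probe set and columns the 6 arrays, fluoxetine left of vehicle; each cell gives log2 intensity minus the gene's mean over the arrays. All 8 genes lie above their own mean on fluoxetine 3, and the extremes are Grik1 on fluoxetine 1 (-0.74) and Grid1 on fluoxetine 2 (-0.63).

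The auxiliary protein Neto1, which also associates with NMDA receptors, had the narrowest interval of the set at its brightest probe set. That probe set, 1456283_at, read 1230.1, 1275 and 1389 with fluoxetine and 1455, 1321 and 1365 with vehicle. The fluoxetine arrays overlapped the lower part of the vehicle range. The difference was -0.09 ± 0.11 (SE), with an interval of 0.785 to 1.13 in fold. Probe set 1425132_at read 708, 744 and 760.3 against 989, 779 and 723 with vehicle, a difference of -0.16 ± 0.14. Probe set 1441815_at read 1008, 1177 and 1461 with fluoxetine and 1419, 1708 and 1000.03 with vehicle. That last probe set also differed by -0.16 (SE 0.23), so the 3 had the same sign. They disagreed over arrays: vehicle 1 was the highest for the first pair, and vehicle 2 for the third, in which vehicle 3 was the lowest of the 6.

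Neto2 had 284, 320.4 and 439.9 with fluoxetine, and 351, 316 and 310.2 with vehicle, at probe set 1436309_at. Fluoxetine 3 was above, and fluoxetine 1 below, every vehicle array. The difference was 0.07 ± 0.18 (SE), a fold of 1.05 with an interval of 0.789 to 1.40. Without fluoxetine 3 it was -0.11, and without fluoxetine 1 it was 0.21. Its dim probe sets went opposite ways, by 0.39 and -0.27, with limma's adjusted p at 0.742 or more when the filter was removed.

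**Figure D3:**
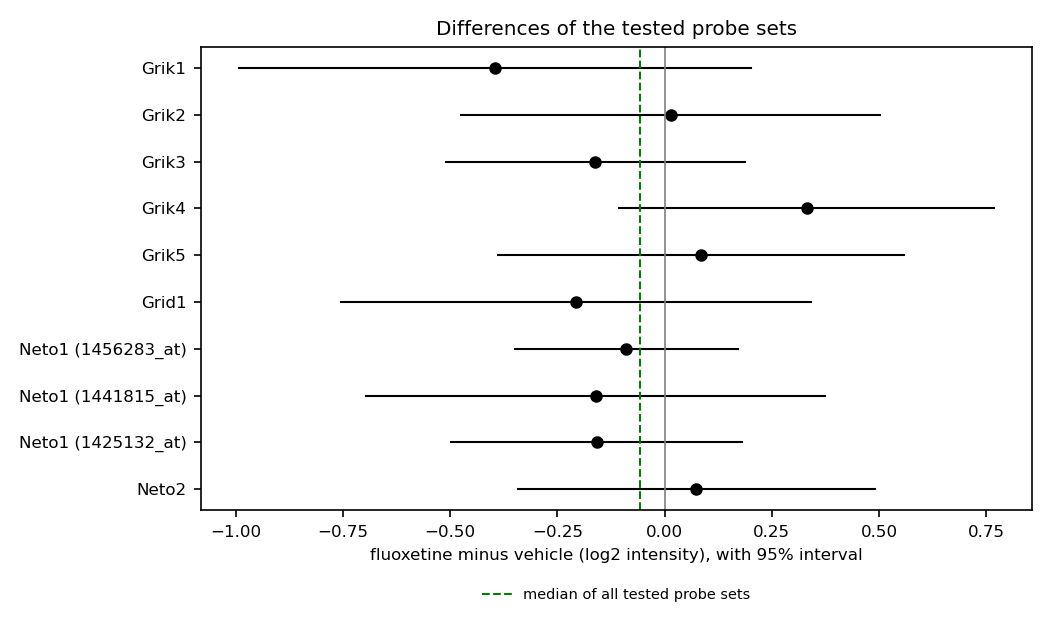
Points are fluoxetine minus vehicle in log2 intensity for the 10 tested probe sets and bars their 95% intervals from limma, with a dashed line at the median of all tested probe sets (-0.06). Every interval includes 0; Grik1 lies furthest left (-0.40) and Grik4 furthest right (0.33).

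The intervals bound what 3 arrays a group can show. Over the 10 probe sets they ran from a fold of 0.502 (Grik1) to 1.70 (Grik4), and a change inside the interval of its probe set cannot be told from none. The genes varied somewhat more between arrays than probe sets in general. Their median SD was 0.30 with fluoxetine and 0.21 with vehicle in log2, against 0.19 and 0.15 over all tested probe sets. The SD was larger with fluoxetine for 6 of the 8 genes, as for 60.3% of all tested probe sets. The median SE of the difference was 0.19 for the 10 probe sets and 0.15 for all.

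On fluoxetine 3 all 8 genes lay above their own mean, where 45.4% of all tested probe sets did. Of the 8, 3 had their highest value there, against 10.1% of all tested probe sets. On fluoxetine 2 just 1 gene, Grik2, lay above its mean, against 37.3% of all tested probe sets. The median deviation of the 8 genes from their means was -0.08, -0.13 and 0.21 with fluoxetine, against 0.03, 0.05 and -0.09 with vehicle. The high value of fluoxetine 3 was not confined to these genes: 7 AMPA and NMDA subunit genes had -0.17, -0.17 and 0.23 with fluoxetine and 0.16, 0.19 and -0.13 with vehicle, and 4 microglia markers had 0.51 on fluoxetine 3. Some lists had a negative median there: excitatory neuron markers -0.04, pericyte markers -0.14 and nuclear RNAs -0.05. The part of any of these lists in the values of the 8 genes was not tested. Without fluoxetine 3, 7 of the 8 genes were lower and their median was -0.12. Without fluoxetine 2, 3 were lower and the median was 0.04.

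For each gene, the gene with the most similar course over the 6 arrays was sought among 11744 others. Likeness was the root mean square difference of the centred log2 values, for which the median gene's closest match stood at 0.031. Grik3 was closest to Slc32a1, the vesicular transporter of GABA and glycine, at 0.015. A match as close existed for 7.39% of all genes. Slc32a1 read 961, 911 and 1092 with fluoxetine, and 1030, 968 and 1275 with vehicle, and ranked the 6 arrays in the same order as Grik3. The other inhibitory neuron markers did not follow as closely, at 0.19 to 0.40 from Grik3, and Vip, with 793, 839 and 857 against 1101, 1091 and 1068 with vehicle, had groups that did not overlap. The summed intensity of the 7 markers was 17569 to 22607 with fluoxetine and 19620 to 20037 with vehicle. Gad1 made up most of that sum, at 12836, 13118 and 16954 with fluoxetine.

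Grik1 was closest to Cadps2, a regulator of dense-core vesicle release, at 0.073, and stood at 0.28 to 0.59 from the 7 inhibitory neuron markers. Grik2 was closest to Ankrd28 at 0.041. Grik4 was closest to Smyd4 at 0.068, Grik5 to Pisd, a mitochondrial phospholipid enzyme gene, at 0.039, and Grid1 to Pex26, a gene of peroxisome assembly, at 0.050. For Neto1 it was Tiam1, an activator of Rac, at 0.025, and for Neto2 it was Ano8 at 0.070. Over 6 arrays, with so many genes searched, such matches describe these arrays only.

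**Figure D4:**
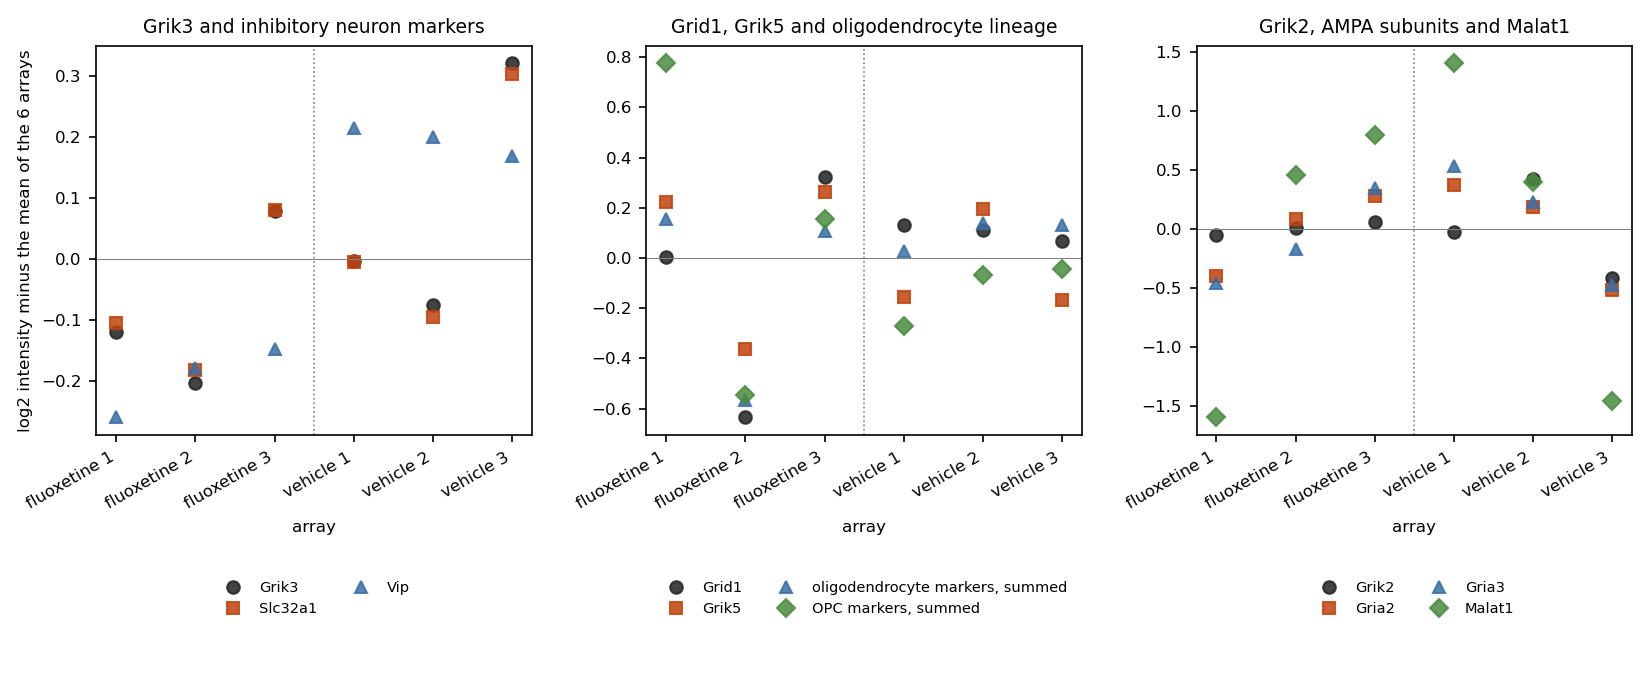
Each panel plots log2 intensity minus the mean of the 6 arrays, by array, fluoxetine left of the dotted line and vehicle right, for Grik3 with 2 inhibitory neuron markers, for Grid1 and Grik5 with summed oligodendrocyte and precursor (OPC) markers, and for Grik2 with Gria2, Gria3 and Malat1. Slc32a1 overlies Grik3, and Grid1 and both marker sums are lowest on fluoxetine 2. Cnp makes up most of the oligodendrocyte sum.

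Genes whose products act on these receptors differed as little between the groups. The list held 25 partners, of which 21 had a probe set and 19 were tested. Of these, 7 were higher and 12 lower, with a median of -0.06 against -0.06 for all tested probe sets, and none passed limma's test or had an unadjusted p under 0.05. After quantile normalization 8 were higher and 11 lower, and after the common-median shift 9 were higher and 10 lower. Under quantile normalization Senp1 and Adarb1 had an unadjusted p of 0.049 each, and none passed the adjusted test. Closest was Senp1, a protease that removes SUMO from targets that include the Grik2 protein. It read 62.9, 66.6 and 77.2 with fluoxetine against 75.3, 95.7 and 87.4 with vehicle, a difference of -0.32 ± 0.14 (SE; limma, unadjusted p = 0.055, adjusted p = 0.999). Fluoxetine 3 exceeded vehicle 1, so the groups overlapped. With the average of the gene's probe sets in place of the brightest it was -0.16 (unadjusted p = 0.207), and leaving out 1 array at a time gave -0.41 to -0.24.

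Pick1, a scaffold that binds glutamate receptor tails, differed by -0.28 ± 0.15 (SE), and Dlg1, another synaptic scaffold, by -0.12 ± 0.11. Cdh2, which encodes N-cadherin, differed by -0.20 ± 0.15. On the higher side, Adarb1, the enzyme gene for pore-site editing of Grik1 and Grik2 RNA, differed by 0.20 ± 0.13, and C1ql3, a secreted C1q-like protein that binds kainate receptors, by 0.20 ± 0.14. The cerebellins that bind delta receptors were measured too: Cbln1 differed by 0.08, Cbln2 by -0.06 and Cbln4 by -0.24. None of these differences passed limma's test. Single arrays moved several of them: Pick1 was -0.15 without fluoxetine 2, C1ql3 was 0.10 without fluoxetine 1 and 0.30 without fluoxetine 2, and Cdh2 was -0.33 without fluoxetine 2 and -0.13 without fluoxetine 1 or vehicle 2. Adarb1 was 0.13 without fluoxetine 3 and 0.12 without vehicle 3, and Dlg1 was -0.18 without vehicle 3 and -0.05 after quantile normalization.

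AMPA and NMDA subunit genes, the other channels that glutamate opens, gave 7 tested members of 11 listed. Of the 7, 3 were higher and 4 lower, with a median of -0.03, and none had an unadjusted p under 0.05. Under either other scaling 5 were higher and 2 lower, with medians of 0.05 and 0.03. Gria4 differed by -0.26 ± 0.16 (SE) and Gria3 by -0.19 ± 0.30, and without vehicle 3 the Gria4 difference was -0.39. Grin3a, a modulatory NMDA subunit, differed by 0.37 ± 0.34. Grin3a read 373, 134 and 221 with fluoxetine, against 161, 169 and 188 with vehicle, and without fluoxetine 1 its difference was -0.01. The remaining named subunits lay nearer 0: Grin2d at 0.06 ± 0.13, Gria1 at 0.06 ± 0.19 and Grin2b at -0.03 ± 0.14. The sign of Grin2b turned under both other scalings (0.03 under each).

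**Figure D5:**
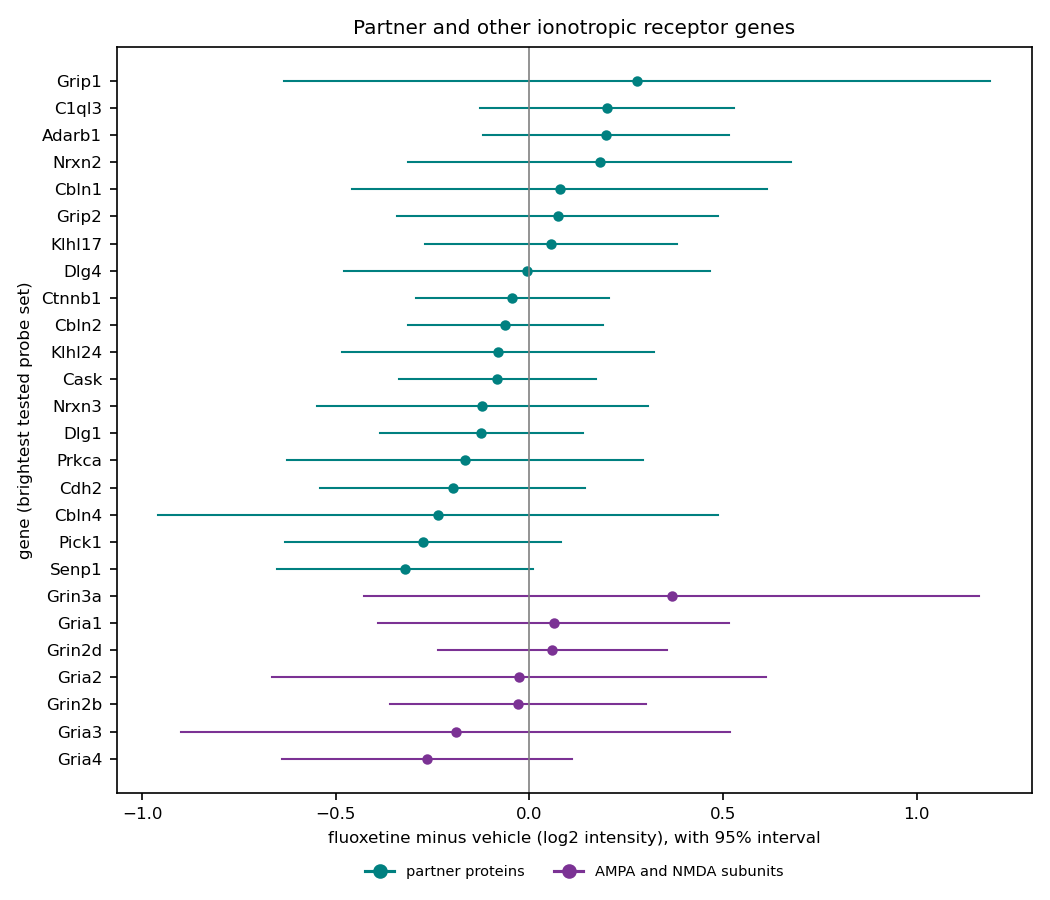
Points are fluoxetine minus vehicle in log2 intensity for 19 partner genes (upper block) and 7 AMPA and NMDA subunit genes (lower block), with 95% intervals from limma. Every interval includes 0; Senp1 (-0.32) is the lowest and Grin3a (0.37) the highest.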

How the data were processed

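TRAP RNA from cortex (15 ng per sample, 2 cycles of amplification) was hybridised to single-colour Affymetrix arrays, per the labels' protocols. The authors deposited linear intensity, a column for each array, made with GCRMA, as the submitters' processing notes name it. The sources used here give neither its version nor a genome build, and no coordinates are printed. GCRMA compresses low values and makes arrays more alike, so a shift of most genes could be hidden in part. The deposited values still differed over most probe sets, with 66.3% of those tested lower with fluoxetine. Arrays carry no read depth, and their number limits the precision. The linear scale was inferred from the values (1.74 to 99076). Of 45101 rows, 64 array controls were left out; 34945 probe sets had 1 symbol, 932 several and 9160 none. All 16 member probe sets matched the RefSeq table (GRCm38.p6) by gene identifier, with the same symbol.

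Values were taken to log2 without offset. The 22326 probe sets (49.6%) with a geometric mean of at least 50 over all 6 arrays were tested with limma 3.58.1 in R 4.3.3 (lmFit and eBayes without a block, two-sided); p-values were adjusted over all of them by Benjamini-Hochberg, with a threshold of 0.05. The fit was first tested on simulated data. A gene was represented by its brightest tested probe set. The members, the 13 lists and the settings were chosen with earlier results of these data known. Named were all members, up to 6 genes per partner and receptor list by smallest p, and the closest match of each member; Gria2, the cerebellins and the single markers were named after their values were seen. The alternatives tried were other filters, an offset of 16, 2 scalings, a block, other variance estimates, array weights, other probe set choices, an adjusted p under 0.1, and each array left out once.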

Additional observations from a re-analysis of the deposited data

How the results depend on the processing

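No probe set passed limma's test under any of the 19 alternative settings (0 calls in each; 318 to 2631 had an unadjusted p under 0.05, against 563 in the reported fit), and the smallest adjusted p of a member was 0.742, without the filter. With a replicate block there were 0 calls and 350 probe sets at an unadjusted p under 0.05. The deviations of same-numbered arrays correlated at -0.25, -0.03 and -0.50. Whether the replicate numbers mark arrays handled together was not tested, and the labels give no batch. The median of the 8 genes was -0.04 as reported, 0.03 after quantile normalization and 0.02 after a shift to a common median; these scalings moved the median of all tested probe sets to 0.00 from -0.06. Grik4 differed by 0.39 after the common-median shift (unadjusted p = 0.045, adjusted p = 1.00). Leaving out 1 array at a time gave -0.12 to 0.04 for the median of the 8 genes, -0.19 to 0.23 for Grik2, -0.026 to 0.29 for Grik5, -0.42 to 0.059 for Grid1 and -0.11 to 0.21 for Neto2. It gave -0.0051 to 0.73 for Grin3a, -0.10 to 0.075 for Grin2b, -0.041 to 0.13 for Grin2d, -0.077 to 0.25 for Gria1 and -0.48 to 0.029 for Gria3. Grik1 (-0.59 to -0.12), Grik3, Grik4 and Neto1 kept their sign in every setting in which they were tested. Grin2b was 0.025 after quantile normalization and 0.030 after the common-median shift. Why the other signs turned was not tested beyond naming the array. Fewer arrays or a dim probe set, as for Grik4, limit what can be seen.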
